A study of Macaca fascicularis with 44 samples.

Results

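The 100 most stable genes of the series were chosen by the level they showed in all 44 RNA-seq libraries. Among the 28623 gene identifiers of the FPKM matrix (fragments counted per length of gene and per size of library), 3475 reached at least 10 FPKM in every library. The 100 of these with the lowest coefficient of variation (CV, the SD divided by the mean) of FPKM form the list. The same reads chose the members and gave every value below, so levels and spreads are descriptions, and no test on these libraries is independent of the choice.

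RNA was sequenced from brain endothelial cells (ECs) of cynomolgus monkeys (Macaca fascicularis). Structures other than cortex gave libraries of cells grown for 7 days (P0D7): brainstem (6 libraries), hippocampus (7), striatum (7) and cerebellum (2). The cortex gave 8 libraries of P0D0, the microvessel fraction as isolated by enzymatic digestion and gradient centrifugation, 8 of P0D7 and 6 of P1D7, the P0D7 cells re-plated for another 7 days. The cultures started from microvessel fractions under puromycin, a drug that brain ECs withstand through their efflux pumps, and by the study's methods P0D0 also carries RNA of blood cells, neurons, glia and pericytes. In bulk libraries, fewer cells of a type and less RNA per cell cannot be told apart. The identifiers carry no gene symbols here, so markers of cell types could not be read and members are named by identifier.

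A reference gene is a gene against which others are normalised, in quantitative PCR for example. It is useful when its level differs little between the conditions compared, relative to the total RNA, and when it is abundant enough to be counted precisely. A gene found stable in a sequencing matrix is only as stable as the scaling of that matrix: a few very abundant transcripts take reads from all others in the same library, and FPKM also depends on the gene length used in the division. For this reason the list was set beside the deposited counts scaled by TMM, the trimmed mean of M values, which sets the libraries against each other so that the typical gene does not change.

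Total counts per library ran from 8600889 to 24450445, and P0D0 was the shallowest group (8600889 to 10738453). P0D0 replicate 3 stood apart before any choice of genes: 28.5% of its counts fell on 10 identifiers, a share that was 11.2% to 15.4% among the remaining P0D0 libraries, and its TMM factor was 0.850, against 1.01 to 1.12. Values without this library, a reading chosen after seeing the data, are given below beside those it moves most. No 2 libraries of a group agreed within sampling noise.

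The members varied little in FPKM, as chosen. Their CV ran from 6.40% to 11.6% (median 10.5%), while the 3475 genes that passed the level limit had a median CV of 26.3%. Their mean levels lay between 12.4 and 145 FPKM (median 29.7), against a median of 37.8 FPKM for the genes that passed the limit. The highest library of a member was 1.30 to 2.32 times its lowest (median 1.61), and 96 members stayed under 2-fold. Of the 3475 genes, 437 (12.6%) stayed under 2-fold, and the median ratio was 3.23. The 4 members at 2-fold or more, ENSMFAG00000008985, ENSMFAG00000043649, ENSMFAG00000032613 and ENSMFAG00000002620, all had their lowest library in P0D0 replicate 3. They are named here after their values were seen. Without that library, 0 members reached 2-fold.

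The limit of the list falls in a continuum. The last members were ENSMFAG00000000825 (CV 11.56%, mean 14.8 FPKM) and ENSMFAG00000032146 (11.60%, 43.8 FPKM), and the next genes outside were ENSMFAG00000002786 (11.61%, 77.1 FPKM) and ENSMFAG00000031115 (11.64%, 36.3 FPKM). In TMM-scaled counts ENSMFAG00000031115, left out by the rule, varied less (10.7%) than ENSMFAG00000032146, which it kept (13.5%).

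**Figure D1:**
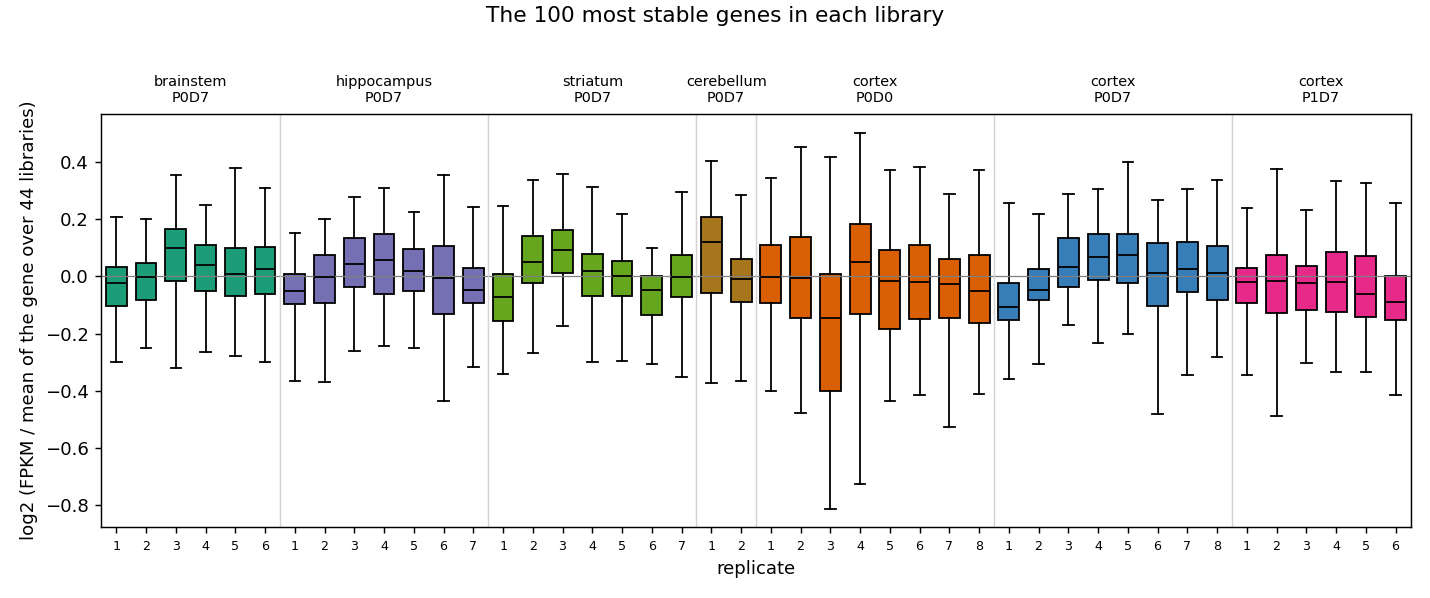
Level of the 100 most stable genes in each of the 44 libraries, as log2 of FPKM over the mean of the gene, with a box for the quartiles, a line for the median and whiskers to the lowest and highest gene. The boxes of P0D0 are among the widest, and P0D0 replicate 3 has its box mostly below 0 and is the lowest library for 31 of the 100 genes.

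In FPKM, the spread within groups was widest in the fresh microvessels. Distance from the mean over the series, given first, also holds shifts of a whole group. In P0D0 libraries, 60 to 94 of the 100 members were within 20% of their own mean over the series. In the other libraries the number was 90 to 100, except in cerebellum replicate 1, where it was 78. Without P0D0 replicate 3 the P0D0 range was 74 to 94. The lowest library of a member was a P0D0 library for 58 members and the highest library was one for 33. Without P0D0 replicate 3 these numbers were 37 and 32. P0D0 replicate 3 was the lowest for 31 members, whereas no other library was lowest for more than 10, and cerebellum replicate 1 was the highest for 16. Within groups, the median CV of the members in FPKM was 7.82% in brainstem, 7.40% in hippocampus, 8.21% in striatum, 8.38% in cerebellum and, in cortex, 11.4% in P0D0, 8.37% in P0D7 and 5.68% in P1D7. For the genes that passed the level limit, the cortical values were 18.2%, 15.4% and 8.27% in the same order. Without P0D0 replicate 3 the P0D0 values were 9.06% for the members, still above the other groups, and 14.9% for the genes that passed the limit, below cortical P0D7. In TMM-scaled counts the members' median CV was 11.1% in P0D0 and 10.3% in the 2 cerebellum libraries. The TMM values were not taken without P0D0 replicate 3. P0D0 also had the lowest depth, and the part of depth in this spread was not tested.

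Counting error was a small part of the spread for most members. Members averaged 429 to 20719 counts per library and the lowest count of any member in any library was 191. The CV that counting alone gives was 2.66% in the median and 5.13% at most. Its share of a member's variance in counts scaled by the library total was 6.72% in the median and 28.6% at most. Over the 7 groups, the highest group mean of a member was 1.08 to 1.43 times the lowest in FPKM (median 1.20), against a median of 1.90 for the 3475 genes. The lowest of the 7 group means fell in P0D0 for 33 members and in P1D7 for 33, and the highest fell in cerebellum for 30 and in P0D0 for 22. Cerebellum had 2 libraries. The order of the groups turned with the scaling: in TMM-scaled counts the lowest group mean fell in P0D0 for 45 members and in P1D7 for 4, and the highest fell in P1D7 for 47, in cerebellum for 20 and in P0D0 for 12.

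ENSMFAG00000043244 had the lowest CV of the 3475 genes (6.40%) and was also the most abundant member. In brainstem it had 127.9 to 145.7 FPKM, with a median of 138.6, in hippocampus 132.2 to 153.3 (147.8), in striatum 134.8 to 146.8 (142.7) and in the 2 cerebellum libraries 162.1 and 132.5. In cortex the P0D0 libraries had 138.2 to 161.6 FPKM, with a median of 151.9, the P0D7 libraries 130.9 to 161.7 (138.1) and the P1D7 libraries 147.9 to 166.6 (149.6). The groups overlapped, except that every P1D7 library was above every brainstem and every striatum library, and the highest value was that of P1D7 replicate 2. Scaled by TMM, it averaged 1421 ± 71.2 CPM in P1D7 (counts scaled to a common library size, SD, n = 6) and 1187 ± 93.9 CPM in cortical P0D7 (n = 8), and every P1D7 library (1352 to 1554) was above every cortical P0D7 library (1055 to 1346). Its CV in TMM-scaled counts was 9.46%, the 43rd lowest of the 3475 genes.

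ENSMFAG00000031356 had rank 3 on both scales. It averaged 30.7 FPKM, with 25.96 FPKM in its lowest library (P1D7 replicate 1) and 34.49 in its highest (brainstem replicate 4). In TMM-scaled counts it averaged 114 ± 7.10 CPM in P0D0, 113 ± 5.84 CPM in cortical P0D7 and 117 ± 7.38 CPM in P1D7 (SD, n = 8, 8 and 6). The groups overlapped. Its CV was 7.68% in FPKM and 6.74% in TMM-scaled counts (rank 3 of the 3475), and 9.15% of its variance on the log2 scale lay between the 7 groups.

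ENSMFAG00000039043 was number 2 by CV (7.45%, mean 14.6 FPKM). It had 10.42 FPKM in P0D0 replicate 3, and 13.24 to 16.64 FPKM in the other 43 libraries. ENSMFAG00000038865 was number 5 (8.34%, 51.3 FPKM) and also had rank 5 in TMM-scaled counts (7.09%), with a lowest value of 40.5 FPKM in P0D0 replicate 3 and a highest of 62.0 FPKM in cerebellum replicate 1.

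Among the first 10, the order by FPKM and the order by TMM-scaled counts parted most for ENSMFAG00000033882 (CV 8.68% in FPKM, 12.8% in TMM-scaled counts, rank 255). ENSMFAG00000030770 (8.22% and 11.6%, rank 144) and ENSMFAG00000020124 (8.75% and 11.3%, rank 129) also left the lowest 100. ENSMFAG00000035839 (rank 63), ENSMFAG00000033592 (rank 95) and ENSMFAG00000044651 (rank 38) kept a place there. The TMM-scaled level of ENSMFAG00000020124 was 135 ± 9.57 CPM in P0D0, 132 ± 9.04 CPM in cortical P0D7 and 168 ± 14.6 CPM in P1D7 (SD, n = 8, 8 and 6). The least abundant member, ENSMFAG00000039115, averaged 12.4 FPKM and ranged from 10.3 FPKM in P0D0 replicate 3 to 16.3 FPKM in cerebellum replicate 1, close to the limit of 10 FPKM in the first.

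**Figure D2:**
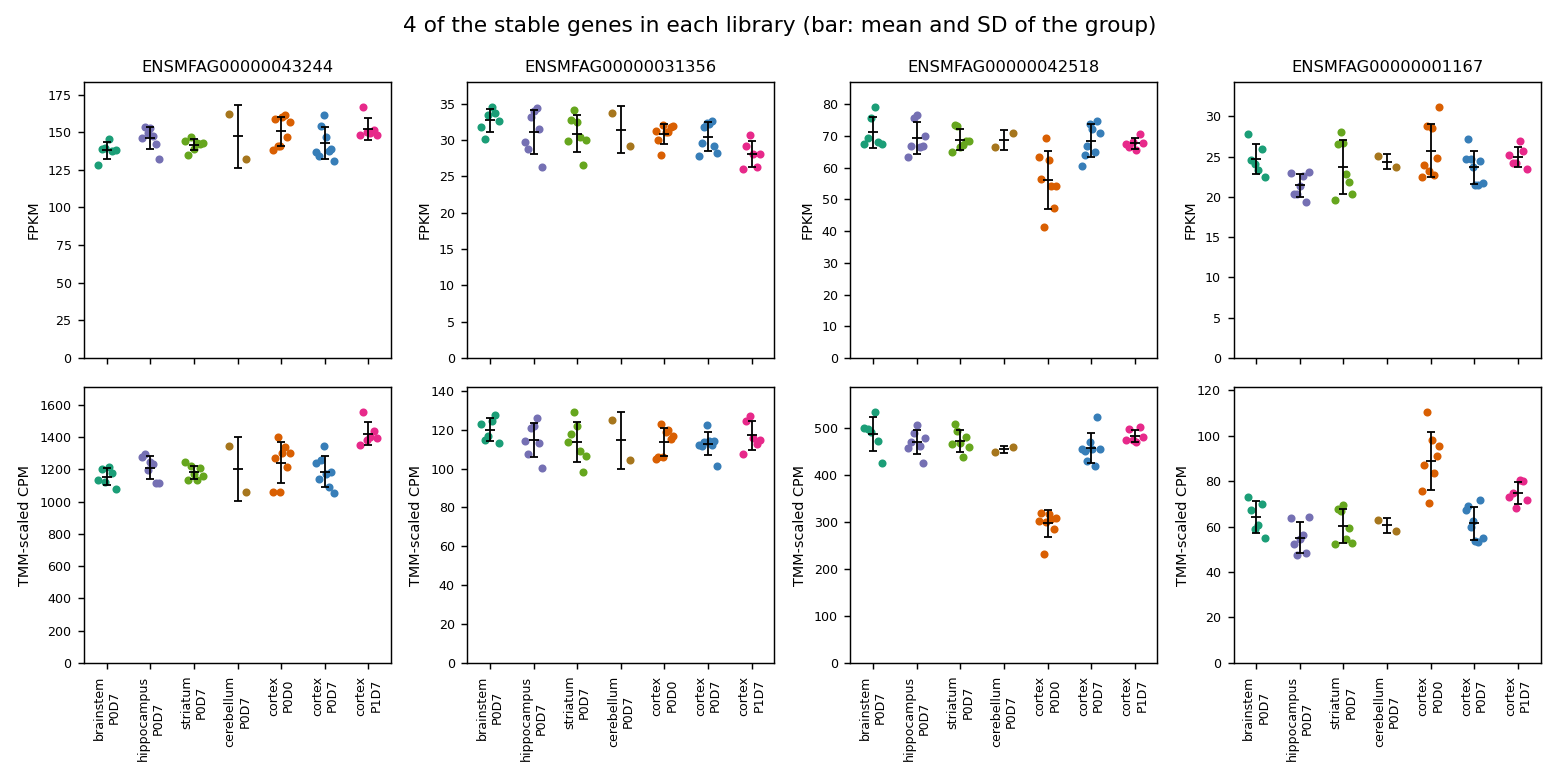
FPKM (top) and TMM-scaled CPM (bottom) of 4 members in each library by group, each point a library and each bar the mean and SD. ENSMFAG00000043244 and ENSMFAG00000031356 overlap between cortical P0D7 and P0D0 on both scales. In TMM-scaled CPM, ENSMFAG00000042518 does not overlap between them (457 against 296 on average). ENSMFAG00000001167 overlaps there only at the ends of its ranges, 53.1 to 71.6 against 70.3 to 110.3 (61.5 against 89.0 on average).

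When the deposited counts were scaled by TMM, 52 of the 100 members were still among the 100 lowest CVs of the 3475 genes. The members' CV became 6.30% to 20.7% (median 10.7%), and 57 of them had a higher CV than in FPKM. Their ranks had a median of 93 and reached 1158. Of the 100, 77 were in the lowest 200 and 94 in the lowest 10% (347 genes), and 93 stayed under 2-fold between their highest and lowest library. The lowest CV of all in TMM-scaled counts belonged to ENSMFAG00000041591 (6.30%), number 14 of the list and named after its value was seen. The 48 genes that entered in place of members had a median rank of 187.5 in FPKM. With median-of-ratios size factors 53 members stayed among the 100 lowest, and with counts divided by the library total 80 did. The number that was lowest in all 4 rankings was 44. Without P0D0 replicate 3, lists drawn anew on the 2 scales shared 54 genes. FPKM and counts come from the same reads, so this overlap shows how far the list depends on the scaling.

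**Figure D3:**
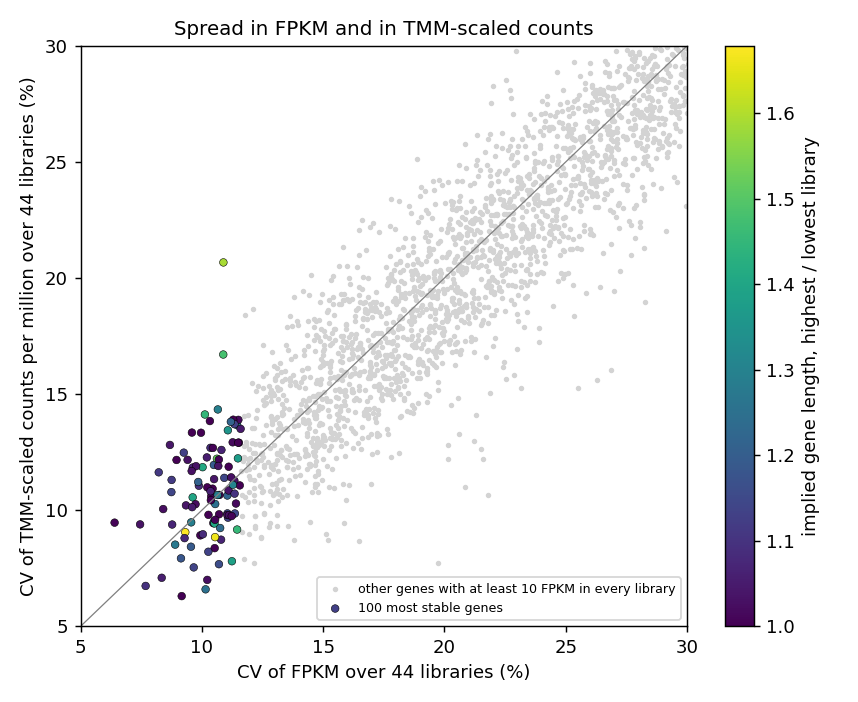
CV of FPKM against CV of TMM-scaled counts for the genes with at least 10 FPKM in every library, up to 30% on each axis, with the 100 members coloured by the ratio of their highest to lowest implied gene length. Most members lie near the line of equal values, and the point farthest above it is ENSMFAG00000001167 (10.9% in FPKM and 20.7% in TMM-scaled counts).

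FPKM and counts also part because the gene length behind the FPKM values was not the same in every library. The length implied by count, FPKM and total count was constant within 1% for 24 members and varied by more than 10% for 42 and by more than 40% for 9. Of the 3475 genes, 1257 were constant within 1% and 1260 varied by more than 10%. Of the 24 members with a constant length, 11 were among the 100 lowest in TMM-scaled counts, and of the 42 with a varying length 24 were.

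The clearest cases were ENSMFAG00000001167 and ENSMFAG00000042518, neighbours on the list (numbers 71 and 70). ENSMFAG00000001167 was singled out after its values were seen. In FPKM it had 21.4 to 27.2 in cortical P0D7 and 22.4 to 31.1 in P0D0, and the groups overlapped. In TMM-scaled counts it had 67.4, 69.1, 59.9, 62.6, 53.7, 53.1, 71.6 and 55.0 CPM in P0D7 replicates 1 to 8, against 75.6, 87.3, 110.3, 70.3, 98.3, 83.7, 91.1 and 95.3 CPM in P0D0 replicates 1 to 8. The highest P0D7 library was just above the lowest P0D0 library and otherwise the groups were apart. Its implied length was 2506 to 2877 bases in P0D7 and 3102 to 3831 bases in P0D0, so the shorter length in P0D7 raised the FPKM values there.

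ENSMFAG00000042518 went the other way. It had 60.6, 64.2, 66.9, 73.8, 72.2, 65.1, 74.8 and 70.9 FPKM in P0D7 replicates 1 to 8, against 63.3, 56.4, 41.4, 69.5, 62.4, 54.3, 47.2 and 54.1 FPKM in P0D0 replicates 1 to 8, and the groups overlapped. In TMM-scaled counts P0D7 (418 to 522 CPM) and P0D0 (232 to 318 CPM) did not overlap. Its implied length was 6451 to 6987 bases in P0D7 and 4763 to 6148 bases in P0D0. Of its variance in TMM-scaled counts, 89.4% lay between the 7 groups, the highest share on the list. The counts give no view of which exons or isoforms lie behind these lengths.

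The cortical fractions were compared gene by gene with edgeR's quasi-likelihood test over 13522 genes, with genes called from a 1.5-fold difference upward where the adjusted p (Benjamini-Hochberg) was 0.05 or less. In P0D7 against P0D0, 66.5% of all genes tested and 55.3% of the 3475 were called. Among the members 1 was higher in P0D7, ENSMFAG00000042518, and 0 were lower. ENSMFAG00000042518 had a log2 fold change of 0.63 (SE 0.07, edgeR adjusted p = 3.07e-08), a fold of 1.54 that lies near the limit. When P0D0 replicate 3, 7 or 8 or P0D7 replicate 5 or 8 was left out, 0 members were called. ENSMFAG00000001167 was lower in P0D7 by a log2 fold change of -0.53 (SE 0.09, edgeR adjusted p = 1.38e-05), a fold of 0.693 that does not reach the limit. The rule chose genes that differ little between these groups, so nothing is read from the low counts of members called.

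In P1D7 against P0D0, 63.6% of all genes and 54.4% of the 3475 were called, and 1 member was, again ENSMFAG00000042518 (log2 fold change 0.70, SE 0.08, edgeR adjusted p = 2.04e-08). With DESeq2, with median-of-ratios factors or with total counts alone 0 members were called, and without P0D0 replicate 3 the number was 2. In P1D7 against P0D7, 15.5% of all genes and 8.43% of the 3475 were called, and 0 members by edgeR and 0 by DESeq2. At an unadjusted p under 0.05, 33 of the 100 members differed, and so did 1345 of the 3475 genes (38.7%). With the preparation code of the labels as a block, 25 members and 42.9% of the 3475 genes did. That fit called 0 members and 13.2% of the 3475 genes. Here too, the same libraries chose the list, so nothing is read from the numbers of members.

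Between structures at P0D7, calls were made over 12114 genes. Without regard to preparation they were 0.231% of all genes in brainstem against cortex, 0.264% in hippocampus, 0.0991% in striatum and 0.132% in cerebellum. Among the members 0 were called by edgeR and 0 by DESeq2 in any of the 4 structures. At an unadjusted p under 0.05, 5 members differed in brainstem, 8 in hippocampus, 5 in striatum and 10 in cerebellum, against 13.3%, 12.2%, 8.66% and 13.4% of the 3475 genes in the same order. Libraries of the structures with the same preparation code as a cortical library deviated together with it, and a fit with the code as a block called more genes: 3.26% of all genes in brainstem, 2.69% in hippocampus, 2.18% in striatum and 2.29% in cerebellum. Of the 3475 genes it called 46, 36, 26 and 79, where the fit without the block called 4, 9, 1 and 7. Among the members it called 0 at 1.5-fold. At an unadjusted p under 0.05 it had 13, 13, 12 and 16 members, against 29.6%, 26.2%, 24.1% and 26.5% of the 3475 genes. With the block and no fold limit, 1 member was lower in brainstem (4.12% of all genes), 3 in hippocampus (4% of all genes), 0 in striatum (2.95% of all genes) and 1 in cerebellum (2.1% of all genes), and 0 were higher in any of the 4 structures. Without the block, the members' fitted log2 fold changes ran from -0.18 to 0.21 in brainstem, from -0.20 to 0.16 in hippocampus, from -0.14 to 0.15 in striatum and from -0.33 to 0.21 in cerebellum. The list was chosen by low spread over these same libraries, so nothing is read from the low numbers of members.

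With no fold required, 34 members were called in P0D7 against P0D0, 17 in P1D7 against P0D7 and 52 in P1D7 against P0D0. In the same order, 78.8%, 25.4% and 77.3% of the 3475 genes were called. The rule chose genes that differ little, so nothing is read from the members' lower shares. In P0D7 against P0D0, 26 members were higher (38.3% of all genes tested) and 8 lower (41.6% of all genes) at an adjusted p of at most 0.05, and the median absolute log2 fold change of the members was 0.10, against 0.69 for the 3475 genes. Among the members that were higher in P0D7, ENSMFAG00000042518 was followed by ENSMFAG00000039920 (log2 fold change 0.50, edgeR adjusted p = 2.86e-07), named after its value was seen. Next came ENSMFAG00000032146, the last member of the list (0.44, edgeR adjusted p = 1.56e-04). In P1D7 against P0D7, 17 were higher (10.5% of all genes) and 0 lower (14.2% of all genes). Libraries of these groups with the same preparation code deviated together, and with the code as a block 11 were higher (14% of all genes). In P1D7 against P0D0, 48 were higher (36.8% of all genes) and 4 lower (39.8% of all genes). The 3 comparisons share their libraries pairwise.

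**Figure D4:**
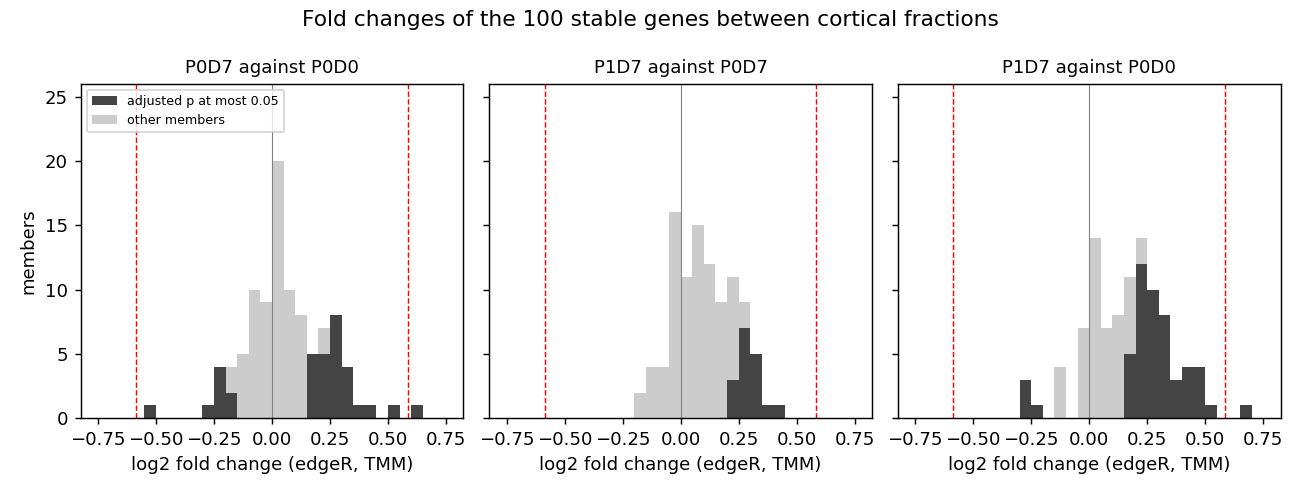
Number of members by fitted log2 fold change between cortical fractions, with those at an adjusted p of at most 0.05 in dark grey and red dashed lines at 1.5-fold. With TMM scaling the members centre on 0.04 in P0D7 against P0D0, 0.10 in P1D7 against P0D7 and 0.19 in P1D7 against P0D0. In the same order, the medians are -0.07, 0.09 and 0.07 with median-of-ratios factors and 0.02, -0.06 and 0.015 with total counts.

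The balance of higher and lower members depended on the scaling, in each comparison under at least 1 of the other scalings. In P0D7 against P0D0, median-of-ratios factors gave 12 members higher and 20 lower, in place of 26 and 8, and moved the median of all genes by -0.11 on the log2 scale, while total counts gave 20 higher and 9 lower. In P1D7 against P0D7, scaling by the total count gave 2 higher and 8 lower, in place of 17 and 0, with a shift of -0.16, while median-of-ratios factors gave 15 higher and 0 lower. In P1D7 against P0D0, the numbers were 22 higher and 8 lower with median-of-ratios factors (shift -0.12) and 11 higher and 13 lower with total counts (shift -0.18). The members' median log2 fold change there stayed positive, at 0.19 by TMM, 0.07 by median-of-ratios factors and 0.015 by total counts. No direction is therefore given for the list as a whole. The shares of all genes called under the other scalings were not counted, so these numbers describe the members alone.

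Some members had ranges that did not overlap between fractions, and nothing is read from their number, since the same values chose the list. Between cortical P0D7 and P0D0, 1 member did not overlap in FPKM, where it lay higher in P0D7 (46.5% of all genes tested did not overlap), and 4 in TMM-scaled counts, all higher in P0D7 (48.1% of all genes). Between P1D7 and cortical P0D7, 5 members lay apart in FPKM, all lower in P1D7 (10.3% of all genes), and 9 in TMM-scaled counts, all higher in P1D7 (9.45% of all genes). The change of side between the last pair of counts goes with the scaling factors: every P1D7 library had a TMM factor between 0.886 and 0.925, below every cortical P0D7 library (0.932 to 1.06).

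**Figure D5:**
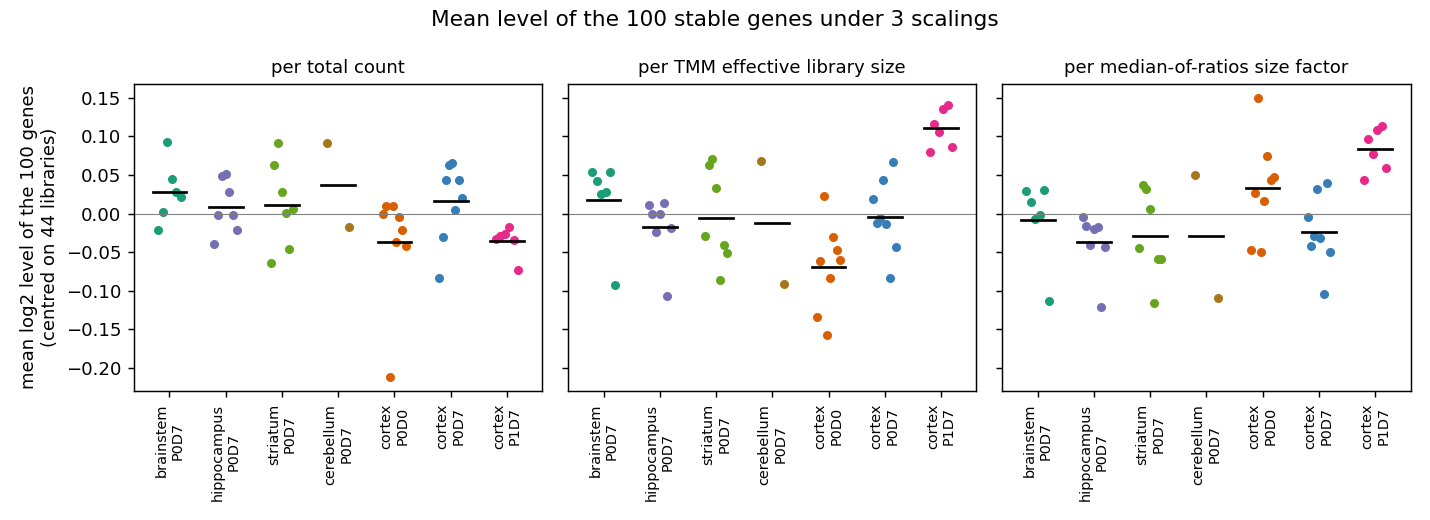
Mean log2 level of the 100 members in each library, centred over the 44 libraries, after scaling by the total count (left), by TMM (middle) and by median-of-ratios factors (right), with each point a library and each line the mean of the group. P1D7 lies between -0.07 and -0.02 per total count and between 0.08 and 0.14 by TMM, and the highest library by median-of-ratios factors is P0D0 replicate 3 (0.15).

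Taken as 1 internal standard, the members gave a library factor of their own. Relative to the total count, the mean log2 level of the members was within -0.08 and 0.09 in every library but P0D0 replicate 3, where it was -0.21, and they took 1.23% of the counts there and 1.35% to 1.54% elsewhere. Relative to the TMM size, the level was -0.09 to 0.05 in brainstem, -0.11 to 0.01 in hippocampus, -0.09 to 0.07 in striatum and -0.09 and 0.07 in cerebellum. In cortex it was -0.16 to 0.02 in P0D0, -0.08 to 0.07 in P0D7 and 0.08 to 0.14 in P1D7, so the P1D7 libraries did not overlap with any other library of the series. With median-of-ratios factors P0D0 (-0.05 to 0.15) overlapped with P1D7 (0.04 to 0.11). A factor made from the 10 members that agreed best with the others stayed within -0.08 and 0.08 of the factor from all 100 on the log2 scale in every library. These 10 were chosen by that agreement in the same libraries and are part of the 100, so closeness was built in.

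The P0D7 libraries of preparation BBB032, singled out after their values were seen, shared an offset. The labels carry 10 such codes, read here as preparations, and libraries of several structures share a code. In the 4 P0D7 libraries of BBB032 (brainstem, hippocampus, striatum and cortex) the members lay at -0.11 to -0.08 relative to TMM, and their TMM factors were 1.06 to 1.08. In the other 26 P0D7 libraries the level ran from -0.09 to 0.07 with 1 library at or below the highest of BBB032, and the factors ran from 0.932 to 1.06, all below the lowest of BBB032. Relative to the total count the 4 libraries were at -0.002 to 0.021. The P0D0 library of BBB032 lay on the same side. Relative to TMM it had the lowest level of the 8 P0D0 libraries (-0.157), and its factor was the highest of them (1.12). The P1D7 library of BBB032 did not share the offset. It lay at 0.135 relative to TMM (factor 0.900), within the P1D7 range of 0.08 to 0.14. Across P0D7 libraries, preparations held a median of 50.6% of the members' variance and structures 15.5% (55.1% and 18.0% for the 3475 genes). Between the 7 groups lay 35.5% of the members' variance, against 65.0% for the 3475 genes and 63.8% for the 14159 genes that reached 1 FPKM in 3 or more libraries. These shares are not corrected for the number of classes, which was larger for preparations than for structures. Unrelated labels would also hold some of the variance, so preparations and structures are not ranked by them.

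Ratios between members need no library scaling. The M value of a member is the mean SD of its log2 ratio to each other member over the 44 libraries, as used by geNorm to rank reference genes. It ran from 0.167 to 0.309 (median 0.200). The lowest M values were those of ENSMFAG00000031356 (0.167), ENSMFAG00000038865 (0.168), ENSMFAG00000042850 (0.174) and ENSMFAG00000043244 (0.176), and the highest were those of ENSMFAG00000001167 (0.309) and ENSMFAG00000042518 (0.285). ENSMFAG00000042850, singled out after its values were seen, was number 93 by FPKM (CV 11.5%), had a CV of 9.17% in TMM-scaled counts, and its implied length varied by a ratio of 1.46. The pair with the steadiest ratio was ENSMFAG00000038865 and ENSMFAG00000000519 (SD of the log2 ratio 0.085, against a median of 0.200 over 4950 pairs), and its ratio ran from 0.767 to 1.03 over the 44 libraries. The second of the pair was named after its values were seen. Of the first 10 by FPKM, 4 were among the 10 lowest M values.

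The list rested on the inclusion of P0D0. Drawn anew without the P0D0 libraries, the list kept 21 of the 100 members, and drawn without any other group it kept 81 to 93. Lists drawn without P0D0 on the 2 scales shared 27 genes. The 100 genes chosen in the 30 P0D7 libraries alone had a CV of at most 7.47% there and shared 23 genes with the members. This reading was added after the data were seen, and P0D0 and P1D7 took no part in that choice. In P0D0 the group mean of these 100 genes differed from that in the P0D7 libraries by a median of 1.45-fold in FPKM, against 1.74-fold for the 4884 genes with at least 10 FPKM in all P0D7 libraries, and by at least 1.5-fold for 47 genes (62.5% of the 4884) and at least 2-fold for 16 (40.1% of the 4884). Without P0D0 replicate 3 the median was 1.40-fold and the numbers were 45 (61.9% of the 4884) and 15 (39.1% of the 4884). In P1D7 the median difference was 1.08-fold (1.20-fold for the 4884 genes) and 0 genes differed by 1.5-fold (13.5% of the 4884).

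In the edgeR test on counts, 47 of these 100 genes were called in P0D7 against P0D0. The shares were 62.1% for the 4884 genes and 66.5% for all genes. Of the 47, 41 were higher and 6 lower in P0D7, against 50.6% and 11.5% of the 4884 genes. Both sets had to reach 10 FPKM in P0D7, 1 side of this test, which keeps genes low in P0D0 and drops those low in P0D7. The balance of higher and lower is therefore not read. In P1D7 against P0D7, 0 of the 100 genes were called by edgeR (474 of the 4884 genes), with 31 at an unadjusted p under 0.05 (39.4% of the 4884). With the preparation code as a block 0 were called (687 of the 4884), with 22 at an unadjusted p under 0.05 (43.6%). The 100 genes most stable among cultured cells of 5 structures were thus tested against fresh microvessels in cortex only. By the thresholds used, 47 of them differed between cortical P0D7 and P0D0, a lower share than the 62.1% of the 4884 genes.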

How the data were processed

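Brain EC libraries were made after depletion of ribosomal RNA with a directional kit and sequenced as read pairs. The authors used ArrayStudio: short and low-quality reads and those from ribosomal RNA were removed, the rest aligned with OSA4 to the Cyno.WashU genome and read pairs counted over the Ensembl R94 gene model. The deposited expected counts are estimated counts of read pairs per gene, not normalized (1.45% of values are not whole, 4338 by more than 0.01). The deposited FPKM values were scaled by the authors to gene length and library total. Implied length was the count divided by FPKM and by the total count, in bases.

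Counts were rounded. TMM factors (edgeR 4.0.16, R 4.3.3) used the 14159 genes that reached 1 FPKM in 3 or more libraries. Tests were edgeR quasi-likelihood fits, of the 22 cortical libraries (genes that reached 1 FPKM in 50% or more of a fraction's libraries) and of the 30 P0D7 libraries. The SE of a log2 fold change was its size over the square root of F. DESeq2 1.42.0 was an alternative. Labels do not say that libraries are separate animals, so the spread behind the p-values is that of these libraries only and may be technical. Read pairs carry no molecular identifiers, so counting CVs cover counting error only. The lowest mean chi-square per gene between 2 libraries of a group was 17.5 over 129 pairs (1 for sampling alone), for genes with at least 20 counts.

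Preparation codes were taken as pairs where every pair of libraries correlated over 0.1 in its deviations. This held for P1D7 against P0D7 (lowest 0.251) and for brainstem (0.193), hippocampus (0.420), striatum (0.112) and cerebellum (0.191, 2 pairs only) against cortex, and did not for P0D7 (-0.005) or P1D7 (0.045) against P0D0.

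Of 28623 identifiers, 0 matched the reference table (a RefSeq table of 40596 genes, 0 with an Ensembl identifier), so the gene lists and markers fixed for named genes were not used. The text names the 10 members of lowest CV, 2 genes on each side of the limit, the most and least abundant member and those called in P0D7 against P0D0, up to 2 in each direction. Other names are marked as chosen after their values were seen. The members, lists and alternatives were chosen with earlier results of these data known.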

Additional observations from a re-analysis of the deposited data

Results flagged for a closer look

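The sets of values were the FPKM of 16 named members, and library factors, in 4 to 10 libraries of a group. ENSMFAG00000001167 and ENSMFAG00000042850, singled out after their values were seen, were among the 16. Of 120 sets, 11 held a library far from the others, by the gap to its neighbour as a share of the range. Chance gives about 1 in 20. P0D0 replicate 3 had 4 of them: 10.4 FPKM of ENSMFAG00000039043 (next 14.4), a TMM factor of 0.850 (next 1.01), a member level of -0.212 relative to the total count on the log2 scale (next -0.0418) and 1.23% of counts in the members (next 1.39%). P1D7 replicate 2 had 167 FPKM of ENSMFAG00000043244 (next 152) and 15.5 FPKM of ENSMFAG00000044651 (next 19.4). ENSMFAG00000033592 had 33.0 FPKM in cortical P0D7 replicate 7 (next 29.4) and 32.5 FPKM in P1D7 replicate 4 (next 30.9). The member level relative to TMM was -0.0925 in brainstem replicate 6 (next 0.0251) and -0.107 in hippocampus replicate 6 (next -0.0237), which are both of preparation BBB032. The member level relative to the total count was -0.0737 in P1D7 replicate 6 (next -0.0339). Their causes were not tested.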

How the results depend on the processing

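Of the 100 members, 55 were kept with a limit of 20 FPKM in every library, 58 with FPKM rescaled to a common sum (FPKM sums ran from 552169 to 1100290, both in P0D0), 52 with TMM-scaled and 53 with median-of-ratios scaled counts, 43 by median absolute deviation over median, 23 in the 30 P0D7 libraries and 21 without P0D0. Under the other 14 alternatives 70 to 93 were kept, and leaving out 1 library in turn kept 76 to 99, the lowest without P0D0 replicate 3. The members' median CV in TMM-scaled counts was 10.4% to 11.0% without 1 library each and 8.19% in the P0D7 libraries. The share lowest on both scales was 27% without P0D0 and 38% and 64.5% for lists of 50 and 200; 57% was found without the 20 most abundant identifiers, an alternative chosen, like the one without P0D0, after seeing the data. Members called in P0D7 against P0D0, P1D7 against P0D7 and P1D7 against P0D0 numbered 34, 17 and 52 with no fold limit and 7, 5 and 18 at a limit midway between 1 and 1.5. In the same order, 78.8%, 25.4% and 77.3% of the 3475 genes were called with no fold limit and 72.3%, 21.9% and 71.9% at the midway limit. With no filter on low values the first and last of these numbered 2 and 3. DESeq2, median-of-ratios factors and total counts each gave 0 in P1D7 against P0D0. Leaving out 1 library gave 0 to 1, 0 and 1 to 2 calls in the 3 comparisons. With the replicate block by preparation code the 3 comparisons had 1, 0 and 1 calls and the structures 0, so the block changed no count of members at 1.5-fold. With no fold limit it called members in structures, where the fit without it called 0. Of 64 CVs of named members under other scalings, 31 moved by more than 2.22 percentage points. Where values moved, the cause was not tested. Counting error was a median of 6.72% of a member's variance in counts scaled by the total (28.6% at most), and the identifiers carry no symbols.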
